A study of Vitis vinifera and Vitis x champinii x Vitis riparia and Vitis cinerea var. helleri x Vitis rupestris with 22 samples.

Results

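A set of 34 grapevine genes gave signal well above background with both of their array probes in every root sample of the rootstock K51-40, and with neither probe in any root sample of the rootstock 140 Ruggeri. They were picked from the 26147 genes that carried 2 probes, of 26241 genes and 52658 probes on the array. A probe counted as detected on an array when a share of 0.5 or more of its spots carried the scanner software's mark for signal well above background. The measured values that chose the genes are therefore the marks of K51-40 and 140 Ruggeri, and every difference between these rootstocks is given below as a description without a test. In all, 35 genes met the rule, and 1 of them is not reported here. With the rootstocks exchanged, the same rule found 31 genes.

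The series held 22 single-colour arrays of roots from rooted leaves, which are detached leaves that have grown roots, raised from pot-grown vines of each variety. K51-40 is a hybrid of Vitis champinii and Vitis riparia that lets chloride pass to the shoot, Cabernet Sauvignon is a Vitis vinifera wine grape of intermediate behaviour, and 140 Ruggeri is a hybrid of Vitis berlandieri and Vitis rupestris that keeps chloride out of the shoot. Roots were taken after 4 days in nutrient solution with 50 mM Cl- supplied as sodium, calcium and magnesium salts, or after 4 days in nutrient solution alone (control). There were 4 salt and 4 control arrays of K51-40, 4 and 4 of Cabernet Sauvignon, and 3 and 3 of 140 Ruggeri, and each array held the pooled roots of 4 rooted leaves. Each variety was propagated from cuttings and stands for 1 genotype.

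The probes were long oligonucleotides designed on transcripts of V. vinifera. Rootstock varieties come from American Vitis species, so a transcript of a rootstock can differ in sequence from the probe and bind it less well, and a gene can also be missing from one species or vary in copy number between them. A probe without signal can thus stand for little transcript, a diverged transcript or an absent gene, and in these data less transcript and weaker hybridisation cannot be told apart. Families that vary most between plant genotypes include the leucine-rich repeat resistance proteins and other tandemly repeated genes. Chloride exclusion itself is set in the root, where anions cross from the living cells into the xylem.

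Some arrays stood apart before any comparison. The median spot intensity ranged from 105.5 to 462 between arrays, signal was 3.91 to 14.9 times background, 72.5% to 82.0% of spots were well above background, and 0 spots were saturated. The scanner values of 21 of the 22 arrays correlated best with their own column of processed values. The exception was Cabernet Sauvignon control replicate 3, whose scanner values followed the processed column of K51-40 control replicate 1 (r = 0.9895 across probes) more closely than its own (r = 0.9311). Detection marks of Cabernet Sauvignon are therefore given over the other 7 arrays and then with that array, while levels use the processed column of that array, which lay with the other Cabernet Sauvignon columns. Scanning took place on 2 dates, with 7 arrays on the second (4 of K51-40 and 3 of Cabernet Sauvignon) and 15 on the first, among them all 6 of 140 Ruggeri. Of the genes with root words in their annotation, 2 of 2 were detected with all probes on all arrays of each variety, and so were 2 of 3 genes with leaf words.

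The 34 genes were weakly to moderately lit in K51-40. On the log2 scale of the processed values, their K51-40 means (both probes, 8 arrays) ranged from 5.75 to 10.31 with a median of 6.76, against a median of 8.998 over all 16629 genes detected with both probes on all K51-40 arrays. In 14 of the 34 the mean was under 6.5, and in 7 it was 8 or more. The 140 Ruggeri values ran from 4.82 to 5.61 over all members and arrays, close to the dimmest probe that was still well above background on those arrays (4.92 to 5.15). A probe without a detected signal allows only a bound, here the K51-40 mean set against the higher of that dimmest detected signal and the probe's own value on each 140 Ruggeri array. By the probe with the smaller bound, a member was at least 1.53-fold to at least 25.7-fold higher in K51-40, with a median of at least 2.28-fold. The bound depends on the processing. With the scanner software's own processed signal, scaled to the 75th percentile of each array, its median was at least 11.5-fold (4.84 to 255). That setting had neither quantile normalization nor batch correction and used another signal, so the part of the scaling alone was not tested. All 34 members had every K51-40 array above every 140 Ruggeri array, as 10.2% of all genes did, but the rule chose on this contrast and nothing can be read from the count.

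**Figure D1:**
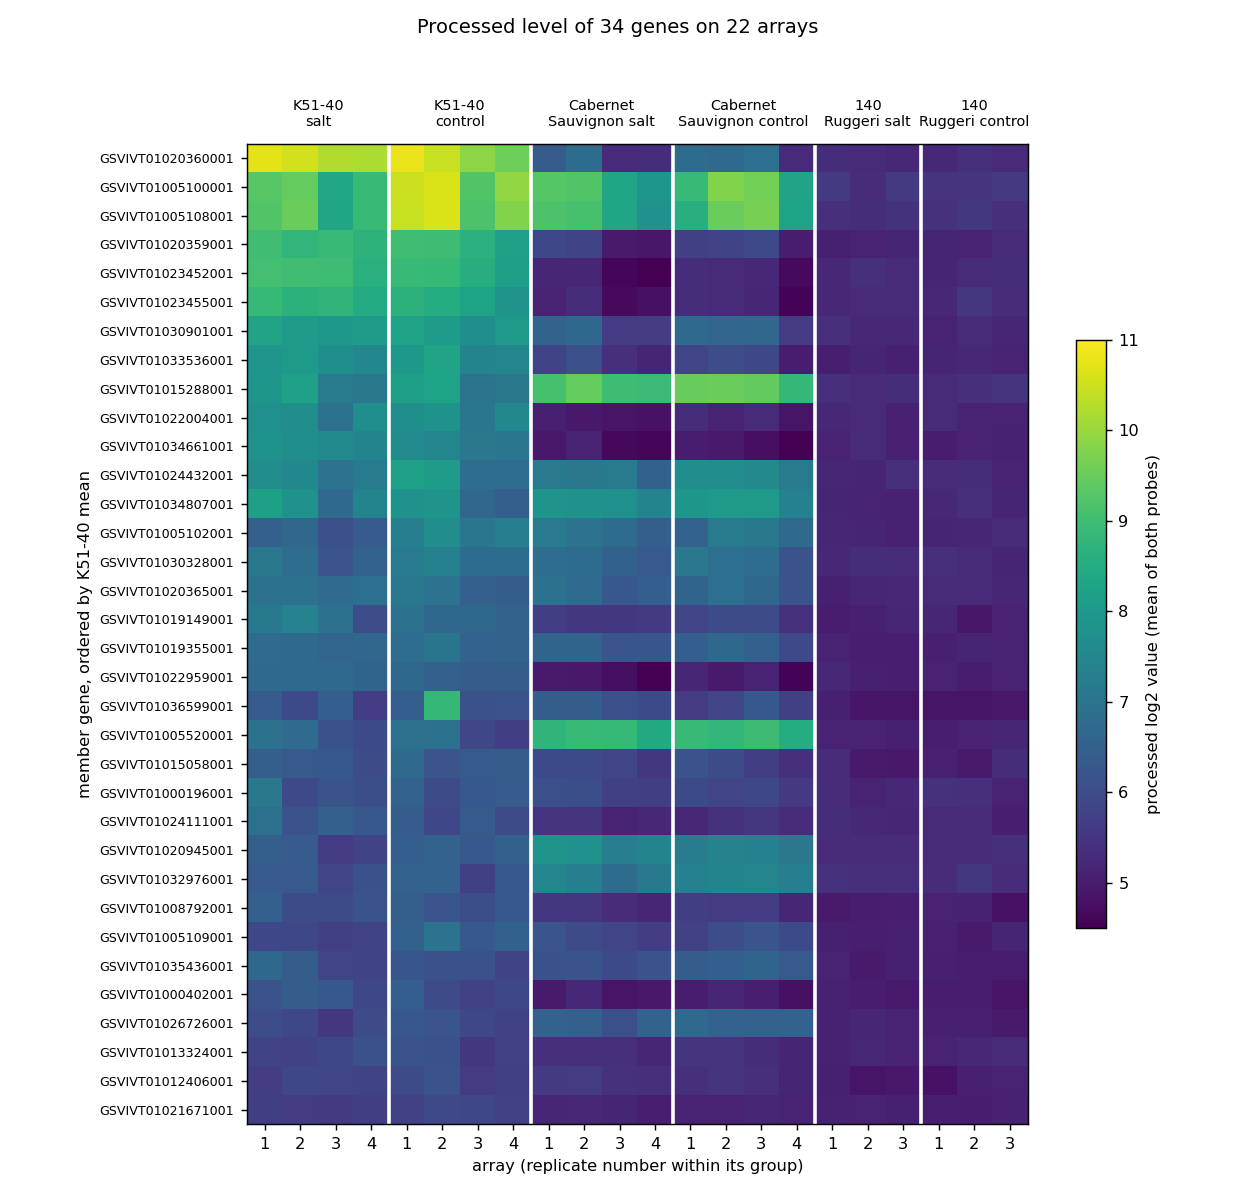
Processed log2 value (mean of both probes, colour scale) of the 34 genes, in rows ordered by their K51-40 mean, on each of the 22 arrays, in columns grouped by variety and treatment. The 140 Ruggeri columns stay between 4.82 and 5.61 for every gene, whereas Cabernet Sauvignon columns range from values as low as those to values above K51-40.

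The threshold cut through a continuous range. A further 19 genes missed the rule by 1 mark in 140 Ruggeri, with K51-40 means of 5.85 to 8.25, 140 Ruggeri means of 5.06 to 5.57 and differences of 0.60 to 2.99 on the log2 scale (median 1.34). Another 6 genes missed it by 1 mark in K51-40, with differences of 0.67 to 1.59. The members' own differences ran from 0.67 to 5.01 with a median of 1.59. A laxer mark of the same software, for signal that is positive and significant, was set for 152 of the 408 member probe readings in 140 Ruggeri (37.3%), against 33.5% over all genes undetected there. Under that mark 33 of the 34 members had at least 1 reading in 140 Ruggeri, GSVIVT01032976001 had all of its readings, and GSVIVT01026726001 had none. The word silent would thus go further than these marks do.

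The rule asked both probes of a gene to be detected in K51-40 and undetected in 140 Ruggeri. Their correlation over the 22 arrays, with a median of 0.97 across members, was thus raised by the selection and is no evidence that they agree. In 29 of 34 genes both probes lay within 1 log2 unit of each other in K51-40. The widest gap, 2.04 log2 units, belonged to GSVIVT01030901001. The 3 dimmest members were GSVIVT01013324001 (5.91 ± 0.22 in K51-40), GSVIVT01012406001 (5.85 ± 0.17) and GSVIVT01021671001 (5.75 ± 0.11, SD, n = 8 each), whose 140 Ruggeri means were 5.18 ± 0.07, 4.98 ± 0.13 and 5.08 ± 0.04 (SD, n = 6).

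Cabernet Sauvignon, which the rule did not use, split the set. Of the 34 genes, 19 (55.9%) were detected with both probes on all 7 Cabernet Sauvignon arrays, compared with 96.4% of all genes detected in K51-40. Another 12 were detected on some arrays or with 1 probe, and 3 were not detected on any, compared with 0.192% of the genes detected in K51-40. The members were dimmer in K51-40 than those genes (median 6.76 against 8.998). Detection depends on level and the shares were not matched for it, so they cannot be read as a trait of Cabernet Sauvignon. Seen from the other side, 63.8% of the 2924 genes undetected in 140 Ruggeri were undetected on the 7 Cabernet Sauvignon arrays too. With control replicate 3 included, 18 members were detected with both probes on all 8 arrays. The comparisons of processed levels that follow are descriptions, since the K51-40 arrays chose the genes.

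Levels in K51-40 lay above every Cabernet Sauvignon array in 16 members, as in 17.4% of all genes, and below every Cabernet Sauvignon array in 4 members, as in 16.6% of all genes. In the other 14 the arrays overlapped. The mean difference, K51-40 minus Cabernet Sauvignon, had a median of 0.18 in the 19 genes detected throughout Cabernet Sauvignon (-2.36 to 4.11), of 1.03 in the 12 detected in part (0.25 to 3.48) and of 2.49 in the 3 not detected (1.72 to 3.77).

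**Figure D2:**
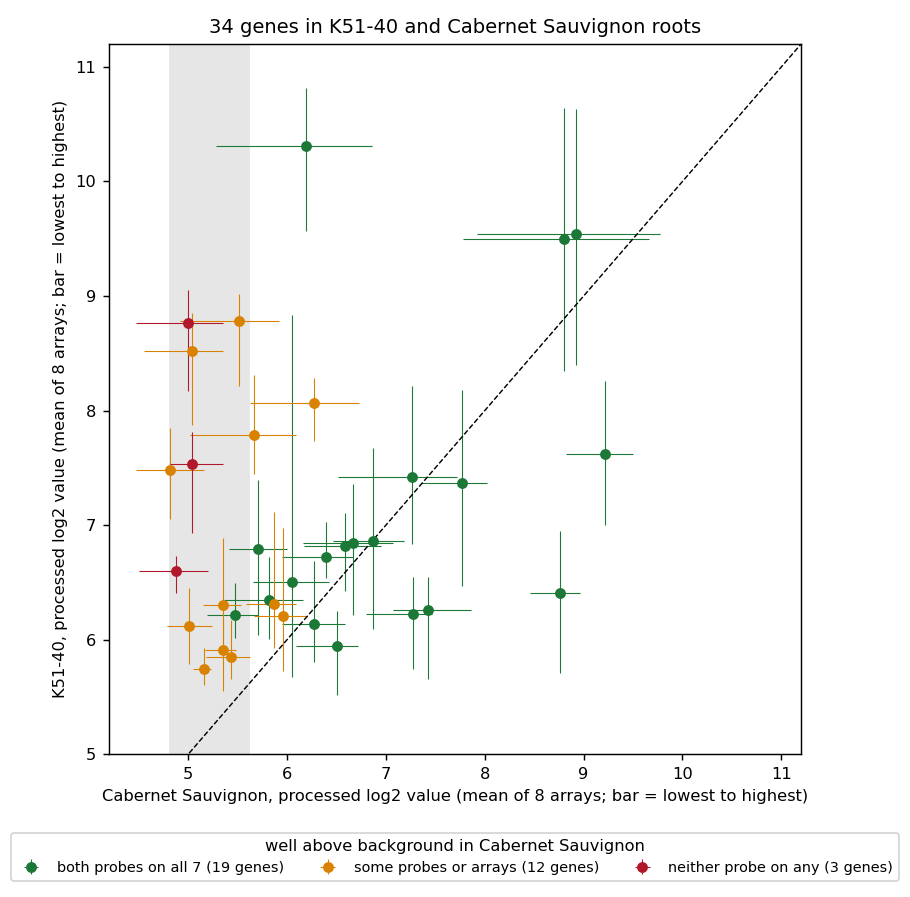
Mean processed log2 value of each of the 34 genes in K51-40 (vertical, 8 arrays) against Cabernet Sauvignon (horizontal, 8 arrays), with bars from the lowest to the highest array and the grey band at the 140 Ruggeri range of 4.82 to 5.61. Green points are the 19 genes detected throughout the 7 Cabernet Sauvignon arrays, orange the 12 detected in part and red the 3 not detected, and 8 genes lie below the dashed line of equal level.

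The 3 members without a mark in Cabernet Sauvignon were GSVIVT01023452001, GSVIVT01022004001 and GSVIVT01022959001, none of which carried an annotation in the tables used here. GSVIVT01023452001 read 9.05, 9.01, 8.99 and 8.63 in K51-40 salt roots and 8.88, 8.85, 8.54 and 8.17 in K51-40 control roots. The same gene read 5.21, 5.19, 4.59 and 4.48 in Cabernet Sauvignon salt roots and 5.35, 5.30, 5.22 and 4.68 in Cabernet Sauvignon control roots, and its 140 Ruggeri values ran from 5.17 through a median of 5.28 to 5.38. K51-40 thus stood alone for this gene, at least 10.4-fold above 140 Ruggeri by the probe with the smaller bound. GSVIVT01022004001 read 6.93 to 7.81 in K51-40 (median 7.72), 4.82 to 5.35 in Cabernet Sauvignon (median 5.01) and 5.10 to 5.29 in 140 Ruggeri (median 5.19). GSVIVT01022959001 read 6.41 to 6.73 in K51-40 (median 6.64), 4.5 to 5.20 in Cabernet Sauvignon (median 4.95) and 4.98 to 5.26 in 140 Ruggeri (median 5.10). In all 3 genes the K51-40 range lay clear of both other varieties, and Cabernet Sauvignon overlapped 140 Ruggeri.

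All 3 of these genes were marked with both probes on the scanner file of Cabernet Sauvignon control replicate 3, as were 32 of the 34 members. On that file the probes of GSVIVT01023452001 had intensities of 705 and 608, against 32.0 to 56.0 and 22.5 to 49.0 on the other 7 Cabernet Sauvignon arrays, while K51-40 arrays ran from 327.5 to 678.5 and from 261 to 674. The processed column of the same array gave 5.40 and 5.03 for these probes. The intensities of that file were at K51-40 levels, while its processed column was at Cabernet Sauvignon levels.

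GSVIVT01034661001 and GSVIVT01023455001 came close to the same pattern. GSVIVT01034661001 was marked on 1 of the 7 Cabernet Sauvignon arrays by 1 probe, and read 7.05 to 7.85 in K51-40 (median 7.54), 4.47 to 5.16 in Cabernet Sauvignon (median 4.86) and 5.01 to 5.28 in 140 Ruggeri (median 5.12). GSVIVT01023455001 was marked on 2 arrays by 1 probe. Its K51-40 values were 8.85, 8.67, 8.76 and 8.51 with salt and 8.69, 8.53, 8.27 and 7.88 without, its Cabernet Sauvignon values ran from 4.56 to 5.36, and its 140 Ruggeri values from 5.22 to 5.52. Neither gene overlapped between K51-40 and the other varieties.

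At the other end, 4 members were higher in every Cabernet Sauvignon array than in any K51-40 array. GSVIVT01005520001 read 6.95, 6.77, 6.15 and 5.95 in K51-40 salt roots and 6.91, 6.94, 5.89 and 5.71 in K51-40 control roots, against 8.76, 8.89, 8.84 and 8.45 in Cabernet Sauvignon salt roots and 8.90, 8.81, 8.96 and 8.52 in Cabernet Sauvignon control roots. Its 140 Ruggeri values ran from 5.05 to 5.20, so the 3 varieties occupied 3 separate ranges. GSVIVT01015288001 averaged 7.63 ± 0.58 in K51-40, 9.21 ± 0.28 in Cabernet Sauvignon (SD, n = 8 each) and 5.36 ± 0.07 in 140 Ruggeri (SD, n = 6). GSVIVT01032976001 averaged 6.22 ± 0.29 in K51-40 and 7.28 ± 0.23 in Cabernet Sauvignon (SD, n = 8 each), against 5.40 ± 0.08 in 140 Ruggeri (SD, n = 6). The remaining gene of the 4, GSVIVT01020945001, is described with the annotated members. For these genes the V. vinifera variety, on whose species the probes were designed, was the brightest and K51-40 lay between.

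The probes of a gene could differ in Cabernet Sauvignon. In 11 of the 12 members detected there in part, they were marked on different numbers of the 7 arrays, and in 2 of these the numbers differed by 5 or more. One probe of GSVIVT01030901001 was marked on all 7 Cabernet Sauvignon arrays and the other on 0 of them, and the intensities were 155 to 548 for the first and 26.0 to 49.5 for the second. In K51-40 these probes gave 343.5 to 810.5 and 76.0 to 300. GSVIVT01033536001 averaged 7.79 ± 0.30 in K51-40, 5.66 ± 0.41 in Cabernet Sauvignon (SD, n = 8 each) and 5.15 ± 0.07 in 140 Ruggeri (SD, n = 6), and its probes gave 27.5 to 60 and 52.0 to 186.5 on the 7 Cabernet Sauvignon arrays. In these 2 genes whether Cabernet Sauvignon counted as detected depended on the probe read.

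Several members had neighbouring identifiers. The numbers inside the gene identifiers follow the order of genes along the V. vinifera assembly to a large extent: of 3265 pairs of consecutive identifiers in the study's tables, 93.3% had names on the same chromosome. In 3 runs, 9 of the 34 members lay within 10 identifier numbers of each other. No probe or gene sequence was used here, so whether probes of such neighbours bind the same transcript was not tested.

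The brightest member belonged to a run of 3, GSVIVT01020359001, GSVIVT01020360001 and GSVIVT01020365001, and the nearest listed identifiers on either side of them, VIT_19s0027g01120 and VIT_19s0027g00870, are named for chromosome 19. GSVIVT01020360001 read 10.74, 10.56, 10.24 and 10.20 in K51-40 salt roots and 10.82, 10.45, 9.88 and 9.57 in K51-40 control roots. In Cabernet Sauvignon it read 6.39, 6.80, 5.28 and 5.34 with salt and 6.81, 6.75, 6.86 and 5.30 without, and in 140 Ruggeri it ran from 5.22 through a median of 5.29 to 5.38. This was the largest K51-40 over 140 Ruggeri bound of the set, at least 25.7-fold with one probe and at least 40.4-fold with the other. GSVIVT01020359001 averaged 8.78 ± 0.27 in K51-40, 5.51 ± 0.46 in Cabernet Sauvignon (SD, n = 8 each) and 5.16 ± 0.08 in 140 Ruggeri (SD, n = 6). Its correlation with GSVIVT01020360001 was 0.99 over the 22 arrays (mean absolute difference 0.84) and 0.90 within K51-40. GSVIVT01020365001 differed in level, with 6.82 ± 0.24 in K51-40 and 6.59 ± 0.28 in Cabernet Sauvignon. Its correlations with the first 2 genes of the run were 0.66 and 0.71 over the 22 arrays, and 0.85 and 0.94 within K51-40. The run was not unbroken, since 4 genes inside it were not members. One of these, GSVIVT01020361001, missed by 1 of its 12 marks in 140 Ruggeri, and averaged 7.93 in the K51-40 arrays, 7.64 in those of Cabernet Sauvignon and 5.52 in those of the other rootstock.

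GSVIVT01023452001 and GSVIVT01023455001, described above, formed a run of 2 with no other gene of the array between them. The nearest listed identifiers, VIT_14s0036g01160 and VIT_14s0036g00810, are named for chromosome 14. Their values were nearly the same on every array, with a mean absolute difference of 0.14 on the log2 scale. The correlation was 0.998 over the 22 arrays and 0.970 within K51-40. Near-identical copies could share transcripts that bind both sets of probes, so the separate counting of these genes is uncertain.

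The third run held GSVIVT01005100001, GSVIVT01005102001, GSVIVT01005108001 and GSVIVT01005109001. The tables name GSVIVT01005102001 as VIT_00s0256g00050 and GSVIVT01005109001 as VIT_00s0256g00120, on a scaffold not assigned to a chromosome, and give no function for either. GSVIVT01005100001 read 9.30, 9.46, 8.40 and 8.90 in K51-40 salt roots and 10.48, 10.63, 9.23 and 9.95 in K51-40 control roots. In Cabernet Sauvignon it read 9.29, 9.22, 8.36 and 7.92 with salt and 8.88, 9.77, 9.61 and 8.30 without, and in 140 Ruggeri it ran from 5.33 through a median of 5.53 to 5.61. It was bright in both K51-40 and Cabernet Sauvignon, and at least 15.5-fold higher in K51-40 than in 140 Ruggeri. GSVIVT01005108001 matched it with a mean absolute difference of 0.10 (largest 0.27), and its bound was at least 16.5-fold. Their correlation was 0.999 over the 22 arrays and 0.996 within K51-40. The 2 genes could not be told apart by their values. GSVIVT01005102001 and GSVIVT01005109001 were dimmer, with K51-40 means of 6.86 ± 0.55 and 6.21 ± 0.44 and Cabernet Sauvignon means of 6.87 ± 0.28 and 5.96 ± 0.20 (SD, n = 8 each). Their 140 Ruggeri means were 5.19 ± 0.06 and 5.07 ± 0.07 (SD, n = 6). They correlated at 0.97 over the 22 arrays and at 0.98 within K51-40.

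Of the 4 genes inside this run that were not members, one shared the pattern. GSVIVT01005101001, listed as VIT_00s0256g00040 and annotated as an ankyrin repeat protein, a class built of short repeats that bind other proteins, was marked in 16 of 16 K51-40 readings, 14 of 14 readings on the 7 Cabernet Sauvignon arrays and 5 of 12 in 140 Ruggeri, and averaged 8.999 in the K51-40 arrays, 8.483 in those of Cabernet Sauvignon and 5.89 in those of 140 Ruggeri. The other 3, GSVIVT01005103001, GSVIVT01005104001 and GSVIVT01005106001, averaged between 4.92 and 5.68 in K51-40.

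The salt treatment was not used by the rule, and 2 of the 3 members that changed with it in K51-40 belonged to this run. The tests were made with limma, with Benjamini-Hochberg adjustment over all 52658 probes. A probe was called when its adjusted p did not exceed 0.05 and its log2 fold change reached 0.5 in size, and a gene was called with 1 probe called. In K51-40 roots 3 of the 34 members were called, all lower with salt, whereas 2.92% of all genes were called, 1.31% higher and 1.62% lower. With both probes called lower there were 2 members, beside 0.701% of all genes. These were the pair in the run on the unassigned scaffold, so they are neighbours and not independent. Over the whole set the median log2 fold change was 0.01, as it was over all probes, and 33 of 68 member probes were below 0 (48.2% of all probes were). An unadjusted p under 0.05 was found for 15 of the 68 member probes (22.1%), against 15% of all probes. These included both probes of every member of the run on the unassigned scaffold, which are not independent, so the share cannot be read as one of the whole set.

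GSVIVT01005102001 fell in both probes. It read 6.50, 6.63, 6.10 and 6.37 in K51-40 salt roots and 7.31, 7.68, 7.05 and 7.29 in K51-40 control roots, so that the groups did not overlap. The log2 fold changes were -0.90 (SE 0.15, adjusted p = 0.00174) and -0.95 (SE 0.18, adjusted p = 0.0051). GSVIVT01005109001 fell too, with 5.90, 5.92, 5.73 and 5.81 in K51-40 salt roots and 6.51, 6.98, 6.30 and 6.51 in K51-40 control roots. Its log2 fold changes were -0.78 (SE 0.16, adjusted p = 0.0072) and -0.69 (SE 0.12, adjusted p = 0.0034), and again the groups did not overlap. Without overlap between groups, salt below control, there were 3 members, these 2 and GSVIVT01021671001, beside 4.16% of all genes, and 0 members in the opposite direction, beside 4.13%.

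GSVIVT01005100001 and GSVIVT01005108001 had larger differences in the same direction that did not pass. The 2 probes of GSVIVT01005100001 gave -1.06 (SE 0.33, adjusted p = 0.0892) and -1.06 (SE 0.35, adjusted p = 0.119), and those of GSVIVT01005108001 gave -1.05 (SE 0.34, adjusted p = 0.099) and -0.99 (SE 0.36, adjusted p = 0.159). With the replicate number as a block in the limma fit both genes passed with both probes, and 5 members were called. Adjusted p was then 0.0021 and 0.0073 for GSVIVT01005100001 and 0.0084 and 0.0121 for GSVIVT01005108001. Same-numbered salt and control arrays of K51-40 shared a scan date, so the block also takes up the date, and pairing of the samples was not shown. The annotated neighbour GSVIVT01005101001 was called lower in both probes, at -1.02 (adjusted p = 0.0313) and -1.13 (adjusted p = 0.0483). The 4 members and this neighbour thus had lower means in salt-treated K51-40 roots, and 3 of these 5 genes passed without the block. The other 3 genes inside the run were not called. GSVIVT01005104001 gave 0.15 and 0.10, while the probes of GSVIVT01005103001 (-1.09 and 0.11) and GSVIVT01005106001 (-0.11 and 0.02) went opposite ways.

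**Figure D3:**
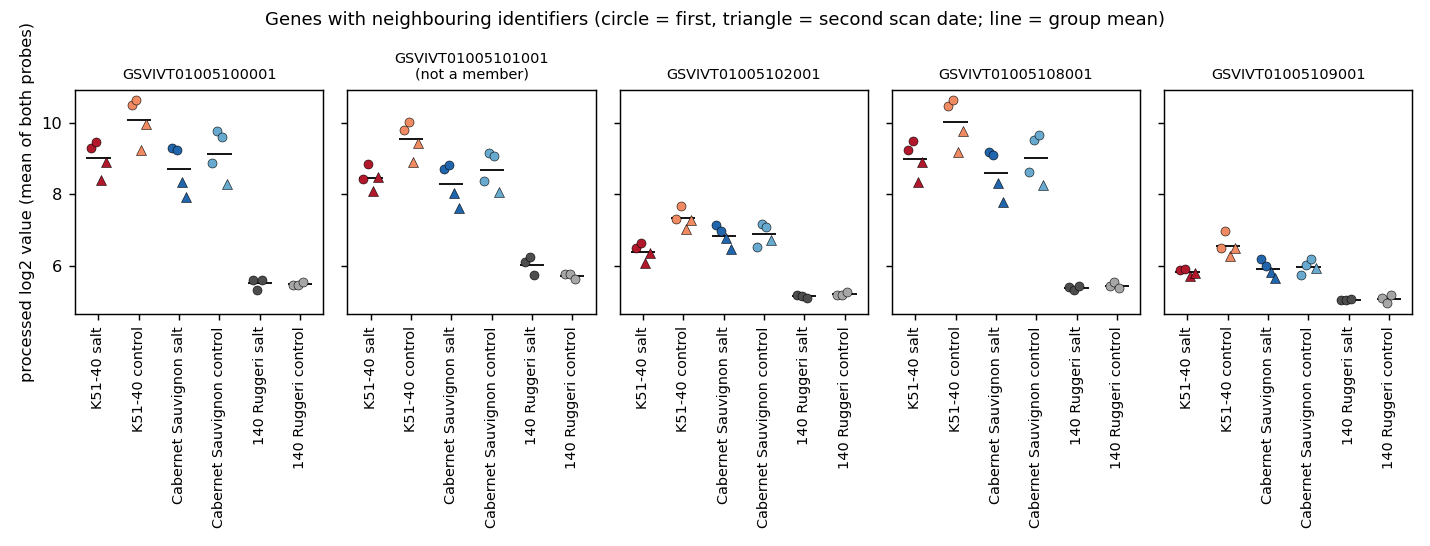
Processed log2 value (mean of both probes) of the 4 members with neighbouring identifiers and of GSVIVT01005101001, which is not a member, on every array, by variety and treatment, with a line at each group mean. Circles are arrays of the first and triangles of the second scan date. In K51-40, salt roots lie below control roots within each date, and all 4 members lie between 4.96 and 5.61 in 140 Ruggeri.

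The lowering was present on each scan date. For GSVIVT01005102001 the log2 fold changes were -0.84 and -1.03 on the second date and -0.97 and -0.88 on the first, and for GSVIVT01005109001 they were -0.59 and -0.68 on the second date and -0.98 and -0.69 on the first. Each date had 2 salt and 2 control arrays of K51-40, and 0 members were called on the second date alone and 4 on the first alone.

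The third called member, GSVIVT01020945001, passed with 1 probe only, at -0.68 (SE 0.18, adjusted p = 0.0469), while its other probe gave -0.03 (SE 0.15, adjusted p = 0.956). The call was lost in 15 of 22 other settings, including without any one of K51-40 control replicates 1, 2 and 4, K51-40 salt replicates 3 and 4 and Cabernet Sauvignon control replicate 3 (adjusted p = 0.0578 to 0.151). The remaining 29 members, other than the 4 of the run and this one, had K51-40 salt responses between -0.90 and 0.43. After GSVIVT01020945001 the 2 probes of a gene differed most in GSVIVT01033536001, which gave -0.15 (SE 0.20) and 0.12 (SE 0.24). The lowest of these, GSVIVT01036599001 at -0.90 (adjusted p = 0.312), rested on K51-40 control replicate 2, which read 8.83 while the other 3 control arrays read 6.12 to 6.44.

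In Cabernet Sauvignon roots 0 members were called for salt by limma, beside 1.11% of all genes (0.732% higher and 0.373% lower), and 3 of 68 member probes had an unadjusted p under 0.05, beside 12.7% of all probes. Member probes were below 0 in 52 of 68 cases (49.7% of all probes), with a median of -0.11 against 0.00 over all probes. Scan date was not balanced here, since 2 of 4 salt arrays and 1 of 4 control arrays were scanned on the second date, on which processed levels of the members were lower. With scan date as a term on processed values the median was 0.00 and 33 of 68 member probes were below 0. It was 0.08 on the second date alone and -0.05 on the first alone. Scanner values with scan date as a term gave -0.17 and 52 of 68, with the file of control replicate 3 kept. Scanner values corrected for scan date without that file gave -0.02 and 39 of 68. The cause of the lower median was not tested. The largest salt response in the main fit was -0.61 (adjusted p = 0.372) for GSVIVT01024432001. Of the neighbouring genes, GSVIVT01005102001 gave 0.03 (SE 0.15) and -0.11 (SE 0.18), GSVIVT01005109001 gave -0.09 (SE 0.16) and -0.02 (SE 0.12), and GSVIVT01005100001 gave -0.44 in both probes (SE 0.33 and 0.35). In Cabernet Sauvignon GSVIVT01005102001 read 7.15, 6.98, 6.80 and 6.47 with salt and 6.54, 7.19, 7.09 and 6.74 without, and the groups overlapped.

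The difference of the salt responses, K51-40 minus Cabernet Sauvignon, was tested in the same model. It was called for 1 member, beside 1.04% of all genes (0.484% with a higher and 0.56% with a lower response in K51-40), and 10 of 68 member probes had an unadjusted p under 0.05, beside 12.9% of all probes. The member was GSVIVT01005102001, with -0.94 (SE 0.21, adjusted p = 0.040) in 1 probe and -0.84 (SE 0.26, adjusted p = 0.1395) in the other. This call was lost in 17 of 27 other settings, with adjusted p between 0.0527 and 0.513, and kept in 10, with adjusted p between 0.0038 and 0.0496. Every setting built on the scanner files that kept the file of Cabernet Sauvignon control replicate 3, which followed a K51-40 column, lost the call. The setting on scanner values that left this file out, chosen after the data were seen, kept the call. Fits on processed values, which do not use this file, lost the call as well, and the cause was not tested. The settings that lost it include 10 of the 16 fits that left out 1 array (without K51-40 control replicate 1, 2 or 4, K51-40 salt replicate 3 or 4, Cabernet Sauvignon control replicate 1 or 4, or Cabernet Sauvignon salt replicate 1, 2 or 3). With the replicate block 3 members were called for the difference, although same-numbered Cabernet Sauvignon arrays did not all deviate together. For GSVIVT01005109001 the difference was -0.69 (adjusted p = 0.159) and -0.67 (adjusted p = 0.0799), and for GSVIVT01005100001 it was -0.62 (SE 0.47, adjusted p = 0.614), and neither gene was called. The second scan date held 2 of 4 Cabernet Sauvignon salt arrays and 1 of 4 control arrays. With scan date as a term, GSVIVT01005109001 was called in 1 probe, at -0.71 (SE 0.16, adjusted p = 0.044), and not in the other, at -0.76 (SE 0.19, adjusted p = 0.0563), GSVIVT01005102001 was called in both, and 3 members were called in all. GSVIVT01005100001 gave -0.85 (SE 0.24, adjusted p = 0.104) in that fit. In 140 Ruggeri no salt response can be given for any member, because neither probe was marked well above background on any array there.

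**Figure D4:**
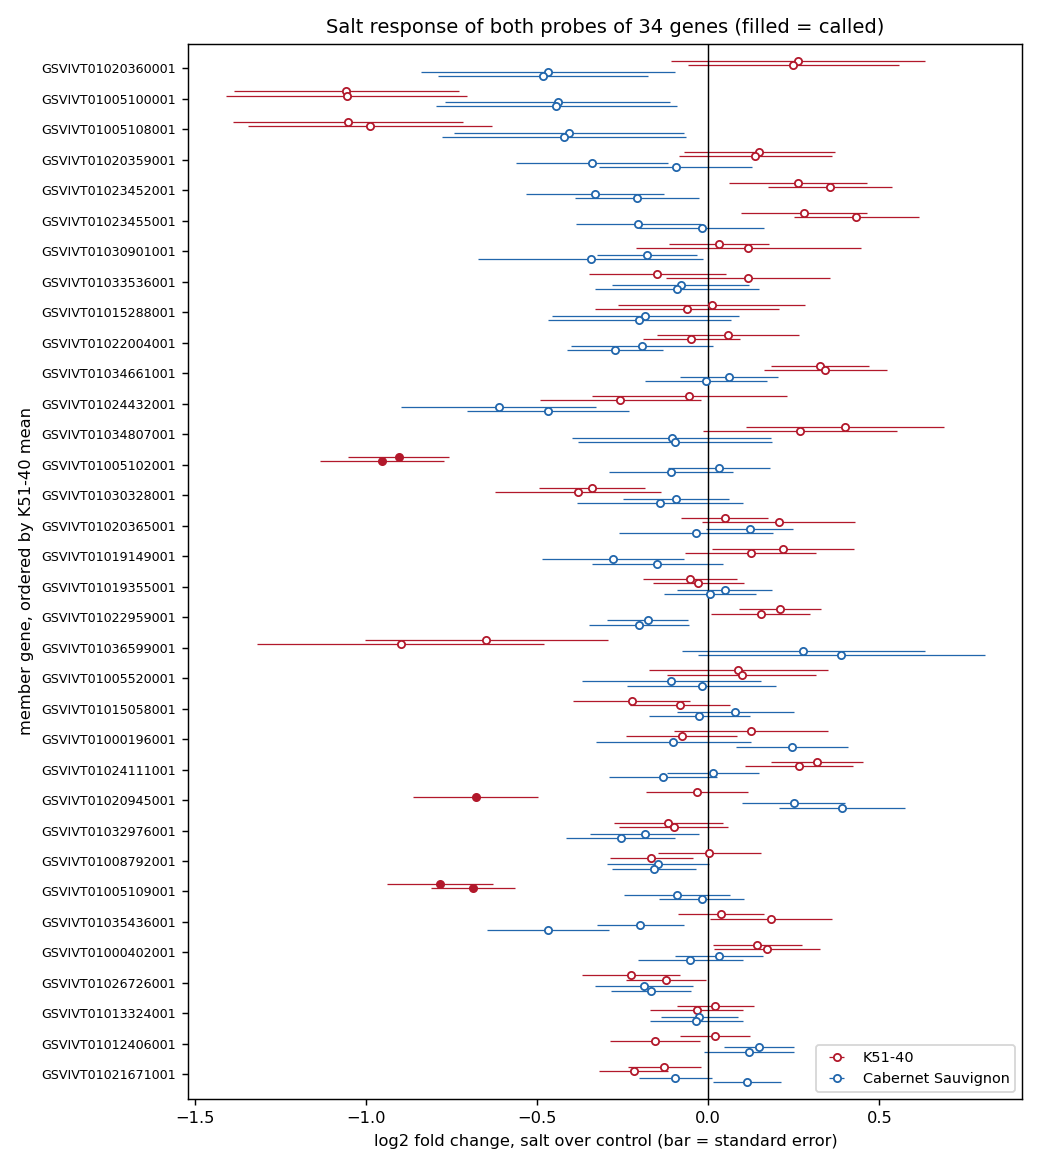
Log2 fold change of salt over control (horizontal, bar = standard error) for both probes of each of the 34 genes in K51-40 (red) and Cabernet Sauvignon (blue), in rows ordered by K51-40 mean, with filled points for called probes. The filled points are the pairs of GSVIVT01005102001 and GSVIVT01005109001 and 1 probe of GSVIVT01020945001, all red and below 0.

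The processed levels of the members moved with the scan date. In K51-40 all 34 members had a lower mean on the second date than on the first, as 50.2% of all genes did, with differences of -1.10 to -0.03 (median -0.35). In Cabernet Sauvignon all 34 were lower as well, beside 49.2% of all genes, with a median of -0.39. In scanner values without batch correction 24 of 34 were lower in K51-40 (median -0.16) and 19 of 34 in Cabernet Sauvignon (median -0.03). In scanner values corrected by ComBat, an empirical Bayes batch adjustment, with the 6 groups held fixed, 13 of 34 were lower in K51-40 (median 0.02) and 9 of 34 in Cabernet Sauvignon (median 0.08). ComBat with the groups held fixed removes date differences within groups by design, so those last counts are no test of the shift. All 6 arrays of 140 Ruggeri, where the rule asked for no signal, were scanned on the first date. The choice of members was thus not independent of scan date, and 34 of 34 cannot be read against the share of all genes. All members moved the same way in the processed values alone, and the part of this shift in the levels above was not tested. With scan date as a term on the processed values, the same 5 members as under the block were called for salt in K51-40.

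**Figure D5:**
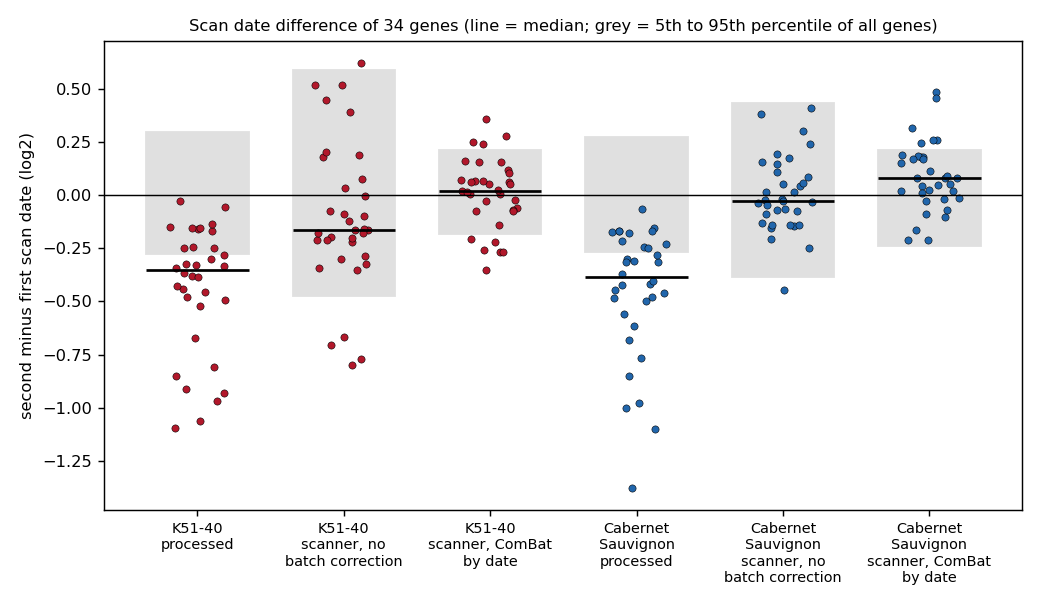
Difference of the second minus the first scan date (log2) for each of the 34 genes, in K51-40 (red) and Cabernet Sauvignon (blue), in the processed values, in scanner values without batch correction and in scanner values corrected by ComBat with the groups held fixed. Black lines are medians over the members and grey boxes span the 5th to 95th percentile of all genes. All 34 points lie below 0 in the processed values of both varieties.

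Few members could be named. The study's tables, which largely list genes chosen on these samples and are no independent evidence, held 4 of the 34, and 2 of those carried a description. GSVIVT01020945001 (VIT_05s0029g01000, best Arabidopsis match AT2G34930) is annotated as an HcrVf3 protein. HcrVf proteins are leucine-rich repeat receptor-like proteins known from the scab resistance locus of apple and related to the leaf mould resistance proteins of tomato. It read 6.46, 6.37, 5.66 and 5.84 in K51-40 salt roots and 6.43, 6.55, 6.29 and 6.49 in K51-40 control roots, against 7.86, 7.78, 7.28 and 7.44 in Cabernet Sauvignon salt roots and 7.23, 7.41, 7.36 and 7.07 in Cabernet Sauvignon control roots. Its 140 Ruggeri values ran from 5.28 to 5.37, so the varieties did not overlap. The tables give an HcrVf annotation to 10 genes of the array, of which 3, this one included, were called lower and 0 higher with salt in K51-40, beside 1.62% and 1.31% of all genes. Since the tables largely list genes picked on these samples, that count describes the listed genes only. The clearest of them was GSVIVT01028967001, at -0.68 in both probes (adjusted p = 0.00174 and 0.0093), which was detected on all arrays of all 3 varieties.

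GSVIVT01030328001 (VIT_08s0058g00150, best Arabidopsis match AT2G38290) is annotated as ammonium transporter 2, which in Arabidopsis carries ammonium across the plasma membrane. It read 7.11, 6.81, 6.21 and 6.53 in K51-40 salt roots and 7.15, 7.36, 6.81 and 6.79 in K51-40 control roots, and 6.82, 6.79, 6.51 and 6.30 in Cabernet Sauvignon salt roots and 7.07, 6.86, 6.81 and 6.16 in Cabernet Sauvignon control roots. In 140 Ruggeri it ran from 5.18 through a median of 5.31 to 5.41, below both other varieties, which overlapped each other. The probes differed in which variety was brighter: one averaged 5.94 in K51-40 and 6.55 in Cabernet Sauvignon, the other 7.76 in K51-40 and 6.78 in Cabernet Sauvignon. Its salt responses in K51-40 were -0.34 (SE 0.15, adjusted p = 0.296) and -0.38 (SE 0.24, adjusted p = 0.513). The other 2 genes with this annotation in the tables, GSVIVT01022397001 and GSVIVT01022402001, were detected with both probes on all 140 Ruggeri arrays, so the lack of a detected signal there did not extend to these 2 genes.

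Of 12 gene lists built from annotation words, transporters held 1 member among 233 genes, the ammonium transporter. In that list 15 genes were called higher and 21 lower with salt in K51-40. All lists hold only genes of the study's tables, most of which list genes picked on these samples. Putative anion transporters chosen when the array was designed are listed there too. Calls in the lists are thus frequent in part by construction and cannot be read against the 1.31% of all genes called higher and 1.62% called lower. The lists of resistance genes (62 genes, 0 higher and 7 lower), receptor kinases (51, 3 and 9), cytochrome P450 (41, 8 and 8), UDP-glycosyltransferases (30, 0 and 3), terpene synthases (19, 2 and 0), phenylpropanoid and stilbene enzymes (79, 3 and 26), glutathione transferases (19, 2 and 0), transcription factors (122, 14 and 16), defence proteins (43, 3 and 2), transposons (8, 0 and 1) and ribosomal and housekeeping genes (58, 6 and 1) held 0 members each. With 30 of the 34 genes outside the tables, these counts say little about the families to which the members belong.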

How the data were processed

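Roots were profiled on 22 one-colour custom Agilent arrays. The authors extracted Cy3 median intensity per spot with Agilent Feature Extraction 10.7.3, took log2, quantile normalized and corrected for hybridisation date with ComBat. The deposited log2 values of the series were used for levels and tests, with the spots of each probe averaged. The deposited intensity values and detection marks of the scanner files were used for detection and for alternatives. The genome build behind the processed values was not needed, and no probe or gene sequence was used. All 22 value columns matched a sample.

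Members and gene lists were chosen with earlier results of these data known. Salt was tested against control with limma 3.58.1 (R 4.3.3), with 1 mean for each of the 6 groups over 22 arrays, Benjamini-Hochberg adjustment over 52658 probes, adjusted p at most 0.05 and a fold change of at least 1.41. Figures used Python 3.11.15, pandas 2.3.3, numpy 2.4.6 and matplotlib 3.10.9. The fit was tested on simulated data. Replicates were separate pools of 4 rooted leaves per the study's methods. Same-numbered salt and control arrays deviated together in K51-40 (r of residuals 0.31 to 0.43) and 140 Ruggeri (0.24 to 0.35), and not in every pair of Cabernet Sauvignon (-0.35 to 0.37). Only same-numbered arrays were compared, and those of K51-40 also shared a scan date, so these correlations do not show that the samples were paired. The fit with the replicate number as a block is given as an alternative only.

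The text names the 8 brightest and 3 dimmest members in K51-40, called members, annotated list members, annotated members detected on all or no Cabernet Sauvignon arrays and the 2 members whose probes differ most in salt response. Other identifiers, among them those of neighbouring genes, were named after their values were seen. The number of arrays limits the precision. Alternatives covered the detection mark, scaling, background (normexp with offset 50, on the median signal), batch terms, filters and left-out arrays. Scaling to the 75th percentile used the scanner software's own processed signal without batch correction. The fits with scan date as a term on processed values, on 1 scan date alone and with scanner ComBat without Cabernet Sauvignon control replicate 3 were chosen after seeing the data.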

Additional observations from a re-analysis of the deposited data

Results flagged for a closer look

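Within the 136 groups of 4 arrays formed by 34 genes, in K51-40 and Cabernet Sauvignon with and without salt, 12 had 1 array farther from the others than Dixon's critical value at 95%. The 5% of that test holds for independent groups of like arrays. Here the genes shared the arrays and each group mixed scan dates, so the count cannot be set against 5%. Cabernet Sauvignon control replicate 4 was the only array of its group from the second date. In Cabernet Sauvignon control replicate 4, GSVIVT01008792001 read 5.19 (the other 3 arrays 5.66 to 5.71), GSVIVT01015288001 read 8.83 (9.43 to 9.5), GSVIVT01020360001 read 5.30 (6.75 to 6.86), GSVIVT01030901001 read 5.63 (6.62 to 6.73) and GSVIVT01034807001 read 7.36 (7.93 to 8.02). In Cabernet Sauvignon salt replicate 3, GSVIVT01026726001 read 6.10 (6.49 to 6.56) and GSVIVT01035436001 read 5.95 (6.15 to 6.18). In Cabernet Sauvignon salt replicate 4, GSVIVT01013324001 read 5.21 (5.37 to 5.40). In K51-40 salt replicate 3, GSVIVT01022004001 read 6.93 (7.71 to 7.75), and in K51-40 salt replicate 4, GSVIVT01022959001 read 6.58 (6.71 to 6.73) and GSVIVT01023452001 read 8.63 (8.99 to 9.05). These 11 low readings were all from arrays of the second scan date. The remaining one was high, 8.83 for GSVIVT01036599001 in K51-40 control replicate 2 (6.12 to 6.44), an array of the first date.

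The salt response of GSVIVT01005102001 differed between K51-40 and Cabernet Sauvignon by -0.94 on the log2 scale in 1 probe (limma, adjusted p = 0.040). Its other probe did not pass (-0.84, adjusted p = 0.1395), and the call was lost in 17 of 27 other settings.

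In the scanner file of Cabernet Sauvignon control replicate 3, which followed a K51-40 column, 3 members were marked with both probes that had no mark on the other 7 Cabernet Sauvignon arrays.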

How the results depend on the processing

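The number of members was 34 to 41 when 1 array was left out (41 without 140 Ruggeri control replicate 3) and 3 with the positive-and-significant mark. The median bound was 11.5-fold with 75th percentile scaling of the scanner software's own processed signal. Members detected throughout Cabernet Sauvignon numbered 19 without control replicate 3. The cause of each change was not tested.

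The K51-40 salt count of 3 was 5 with the replicate block, with scan date as a term on processed values, and with scanner ComBat without Cabernet Sauvignon control replicate 3. It was 1 with 75th percentile scaling and 0 with a log2 threshold of 1 or on the second date alone, while the first date alone gave 4. Leaving out 1 array gave 2 to 5 (5 without K51-40 control replicate 3), and GSVIVT01005102001 and GSVIVT01005109001 were called in 21 and 17 of 22 settings. The median member response was -0.09 to 0.08 when 1 array was left out. The Cabernet Sauvignon count of 0 was 1 with the replicate block, although pairing by number was not shown, and 0 without any 1 array.

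The count of 1 for the difference of responses was 3 with the replicate block, with scan date as a term on processed values and with scanner ComBat without Cabernet Sauvignon control replicate 3. It was 0 with scanner values uncorrected, with date or slide as a term, with 75th percentile scaling, with normexp, with only the arrays compared, at a log2 threshold of 1 and with both probes required. Leaving out 1 array gave 0 to 2.

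Signs were compared over settings for probes of some named genes only. They turned in the probes below, none of which was called in the main fit. The second probe of GSVIVT01020945001, at -0.03 in the main fit, ranged from -0.30 to 0.23 over 22 other settings. The second probe of GSVIVT01020945001 gave 0.028 in scanner values uncorrected or with date as a term, 0.0304 with ComBat without Cabernet Sauvignon control replicate 3, 0.0596 with slide, 0.0749 with 75th percentile scaling, 0.0076 with normexp and 0.23 on the first date, and -0.12 to 0.10 when 1 array was left out. The probes of GSVIVT01033536001 gave 0.0356 on the second date (-0.27 to 0.036 when 1 array was left out), and -0.0146 with slide and -0.0676 on the first date.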
